A study of Mus musculus with 12 samples.

Results

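The genes described here encode the steroid receptors through which 1 µM aldosterone could act on skeletal muscle fibroblasts, and the enzymes that control access of glucocorticoids to those receptors. They were chosen by name and comprise the receptor genes Nr3c1, Nr3c2, Pgr and Esr1 and the enzyme genes Hsd11b1, Hsd11b2 and H6pd, 7 of the 28995 genes in the deposited tables. All 7 were present in each of the 3 pairwise tables, and 6 of the 7 averaged 10 or more normalized counts in the table of aldosterone and vehicle, the exception being Pgr. Bulk poly(A) RNA was sequenced from passage 2 fibroblasts of wild-type C57BL/10 mice aged 3 days, isolated from hindlimb muscle by adherence and kept in charcoal-stripped serum. Cells were treated for 48 hours with 1 µM aldosterone, 1 µM spironolactone or DMSO vehicle, with 4 libraries per treatment. The cells came from 2 mice, were pooled within each mouse, and were plated on 2 replicate plates per mouse and treatment. In the labels a library has 2 numbers, for the sample and for the biological replicate, which are written here as 1_1 to 2_2, and neither is identified as the animal. Variation between plates of a mouse is technical, so the p-values below rest on the spread among libraries of only 2 animals.

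Nr3c2 encodes the mineralocorticoid receptor (MR), the receptor that aldosterone binds with high affinity, and Nr3c1 encodes the glucocorticoid receptor, which aldosterone can also bind at high concentrations. Both are ligand-activated transcription factors that leave a chaperone complex, enter the nucleus and recognise the same DNA motif. Hsd11b2 inactivates glucocorticoids and so keeps them from the MR in classical aldosterone target tissues, while Hsd11b1 works mainly in the opposite direction, with NADPH that H6pd supplies in the endoplasmic reticulum. Pgr and Esr1 encode the progesterone receptor and estrogen receptor alpha, and spironolactone is an MR antagonist that also binds other steroid receptors.

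Between 19136923 and 30219185 reads per library were assigned to genes, with a median of 23833400. The fibroblast label was checked against its markers, and 9 of 9 listed fibroblast genes were measured, with a summed level of 43962 to 48611 CPM (counts scaled to the library total) in vehicle, 35602 to 39806 in aldosterone and 39978 to 46027 in spironolactone libraries. Most of this sum came from the collagen genes Col1a1 and Col1a2, at 23077 to 25473 and 14680 to 17141 CPM with vehicle. The summed level of 8 myogenic markers was between 2.88 and 6.46 CPM, that of 7 macrophage markers between 9.77 and 13.2 CPM with Itgam at 0, and that of 5 endothelial markers was 20.1 to 22.4 CPM with vehicle and 28.0 to 30.4 CPM with aldosterone. The 4 Schwann cell markers summed to 10.2 to 19.1 CPM and the 4 markers of pericytes and smooth muscle to 289 to 523 CPM. Cspg4, at 333 to 430 CPM with vehicle, made up most of the latter sum. Known receptor targets served as a check of the treatment. Fkbp5, a co-chaperone of the receptors, was 4.26 higher on the log2 scale with aldosterone than with vehicle (SE 0.082), Tsc22d3, a glucocorticoid-induced leucine zipper, was 2.69 higher, and Per1, a circadian repressor, was 1.83 higher, with adjusted p-values of 4.02e-15, 4.02e-15 and 3.34e-12 in limma.

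The promoter windows of Hsd11b1 and H6pd are shown because these enzyme genes rose together with aldosterone, as described below. RefSeq promoter windows (GRCm38.p6) were used, each from 250 bases before to 50 bases after a transcription start. Their coordinates belong to that build and cannot be set against the gene positions given below, which do not match it. Windows of 5 of the 7 genes were examined. No window of Nr3c1 or Hsd11b2 was examined, so their promoters are not described here. Both strands were searched for the hexamer TGTTCT, the core of the motif shared by the MR and the glucocorticoid receptor, and for the palindrome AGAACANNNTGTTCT, in which every match also holds the hexamer. The hexamer is in capitals.
H6pd, minus strand, chr4:150003187-150003486: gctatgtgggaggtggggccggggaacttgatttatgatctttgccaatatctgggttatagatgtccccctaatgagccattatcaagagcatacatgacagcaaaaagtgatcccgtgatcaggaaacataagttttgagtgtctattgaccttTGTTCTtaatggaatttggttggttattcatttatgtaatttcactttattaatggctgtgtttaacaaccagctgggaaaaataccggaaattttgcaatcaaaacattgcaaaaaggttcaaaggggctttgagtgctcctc
Hsd11b1, minus strand, chr1:193242311-193242610: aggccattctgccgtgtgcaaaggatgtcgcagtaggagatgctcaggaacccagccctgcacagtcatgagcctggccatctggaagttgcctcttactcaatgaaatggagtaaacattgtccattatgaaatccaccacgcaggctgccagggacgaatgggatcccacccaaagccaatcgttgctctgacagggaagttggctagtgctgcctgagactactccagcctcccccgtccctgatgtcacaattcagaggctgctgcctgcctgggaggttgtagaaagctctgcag
The H6pd window held the hexamer 1 time, beginning at position -94 from the start, and the windows of Hsd11b1, Nr3c2, Pgr and Esr1 held it 0 times. Over all 32851 windows, 6233 (19.0%) held the hexamer and 3 (0.00913%) held the palindrome. A match to these letters is a description of the window, and a window without one says nothing about binding elsewhere.

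The receptor genes differed widely in level. To compare genes, recovered reads were scaled to the gene's length and to the library total, and these levels are given as RPKM. Nr3c1 was at 15.9 ± 0.872 RPKM with vehicle, 11.6 ± 0.445 with aldosterone and 15.4 ± 0.606 with spironolactone (SD, n = 4 each), above 83.8% of 16947 protein-coding genes in vehicle libraries. Nr3c2 was at 0.247 ± 0.139, 0.0927 ± 0.0388 and 0.182 ± 0.0586 in the same order, above 26.9% of protein-coding genes with vehicle, and this level rested on 6 to 53 reads per library. Esr1 was at 0.229 ± 0.0372, 0.203 ± 0.0372 and 0.253 ± 0.0161, and Pgr at 0.0438 ± 0.0213, 0.0519 ± 0.0257 and 0.0406 ± 0.0199, the latter from 4 to 19 reads per library. Reads cannot show the amount of receptor protein, which was not measured in this assay.

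In each treatment the order of levels began with H6pd and then Nr3c1, and every library of H6pd lay above every library of Nr3c1 in the same treatment. Every Nr3c1 value in turn lay above every value of the 5 remaining genes. Among those 5, neighbours in the order overlapped with vehicle throughout, from Hsd11b1 through Nr3c2, Esr1 and Hsd11b2 to Pgr. With aldosterone the order below Nr3c1 was Hsd11b2, Hsd11b1, Esr1, Nr3c2 and Pgr, where Hsd11b2 overlapped Hsd11b1 and Nr3c2 overlapped Pgr, while Hsd11b1 lay above Esr1 and Esr1 above Nr3c2 in every library. With spironolactone Hsd11b1 lay above Esr1 and Hsd11b2 above Pgr in every library, and the remaining neighbours overlapped.

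**Figure D1:**
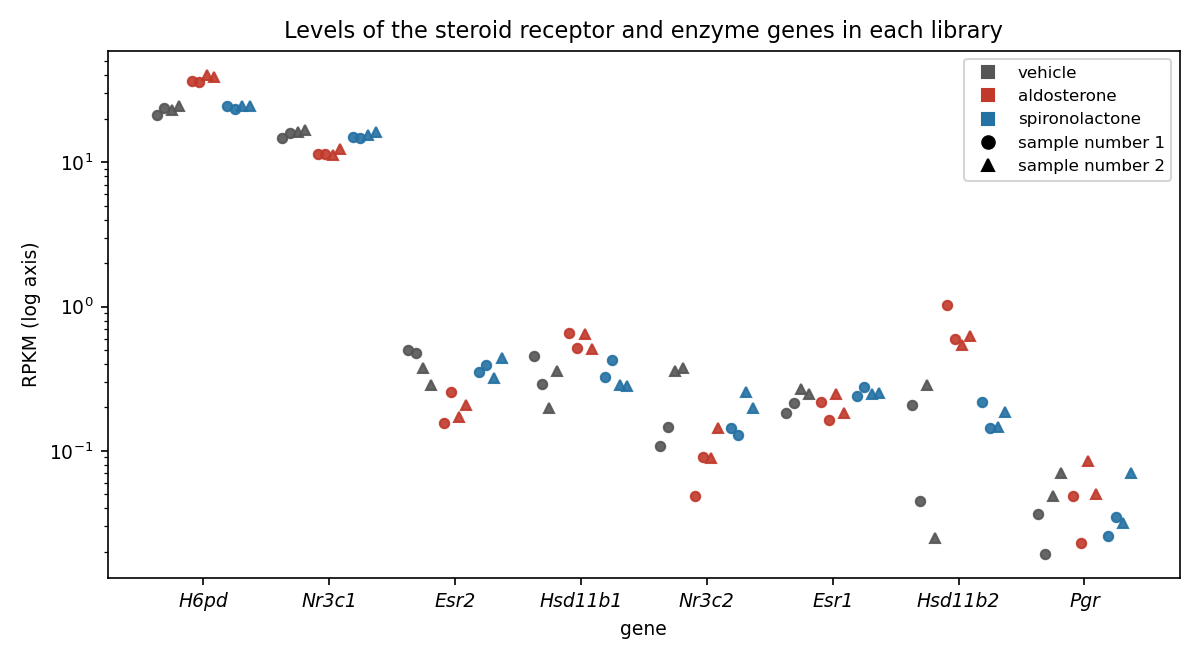
Levels of the 7 genes and of Esr2, which encodes estrogen receptor beta, in each of the 12 libraries, as RPKM on a log axis, coloured by treatment and with the marker giving the sample number. H6pd and Nr3c1 lie above 11 in every library, whereas Nr3c2 lies between 0.0484 and 0.377.

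The ratio of Nr3c1 to Nr3c2 shows how far the transcripts of the glucocorticoid receptor outnumbered those of the MR. Per unit of length, the ratio was 136, 109, 45.7 and 44.5 in vehicle libraries 1_1, 1_2, 2_1 and 2_2, 237, 127, 127 and 85.9 in the aldosterone libraries in that order, and 105, 116, 60.3 and 81.8 in the spironolactone libraries. The groups overlapped, and in each treatment no library of sample number 2 had a higher ratio than the libraries of sample number 1, apart from a near tie at 127 with aldosterone. Nr3c2 made up between 0.420% and 2.20% of the 2 transcripts together. The mean log2 ratio was 0.86 higher with aldosterone than with vehicle (two-sided exact permutation test, p = 0.2), 0.61 higher with aldosterone than with spironolactone (exact p = 0.143) and 0.25 higher with spironolactone than with vehicle (exact p = 0.6). Adjusted over the 3 pairs of treatments, these p-values were 0.3, 0.3 and 0.6, and the smallest p that 4 libraries against 4 allow is 0.0286. With permutations within sample numbers, as a replicate block, the p-values were 0.111, 0.0556 and 0.278 in the same order (exact test), and 0.0556 is the smallest this test can give. Within each sample number both aldosterone ratios lay above both spironolactone ratios.

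**Figure D2:**
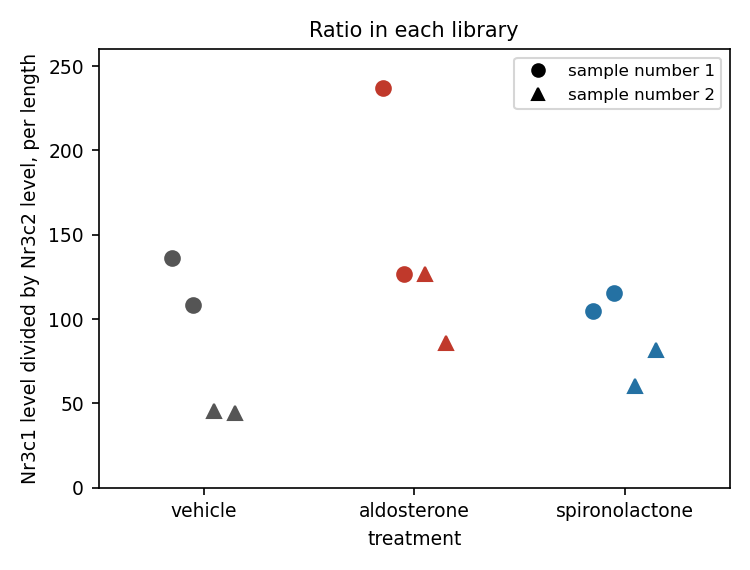
Nr3c1 level divided by Nr3c2 level, both per unit of gene length, in each library by treatment, with circles for sample number 1 and triangles for sample number 2. The ratio runs from 44.5 to 237 and the 3 treatments overlap.

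The comparison of aldosterone with vehicle asked how these genes move when the MR agonist is present. Of the 7 genes, 3 were higher and 1 was lower at an adjusted p of at most 0.05 (limma on log2(normalized count + 1), over 27319 genes), against 5.68% of all genes higher and 4.74% lower. A separate limma fit of only the 15245 genes averaging 10 or more normalized counts gave larger shares, with 1620 higher and 1413 lower. When a log2 fold change of 1 or more in either direction was also required, Hsd11b2 alone remained, against 1.4% of all genes higher and 0.666% lower. The 3 enzyme genes were all higher, and the receptor gene that passed the test, Nr3c1, was lower. The median log2 fold change was 0.91 over the 3 enzyme genes and -0.27 over the 4 receptor genes, beside -0.0064 over all genes tested. In bulk libraries, fewer cells of a type and less RNA per cell cannot be told apart.

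Nr3c1 (ENSMUSG00000024431, chromosome 18, 39543598 to 39652474, minus strand) had 2715, 2892, 2911 and 3003 normalized counts in the vehicle libraries and 2182, 2177, 2081 and 2240 in the aldosterone libraries, in the order 1_1, 1_2, 2_1 and 2_2. Every aldosterone library lay below every vehicle library. Nr3c1 fell by 0.41 on the log2 scale (SE 0.054, adjusted p = 6.48e-05 in limma), so that its level was 0.754 times that with vehicle, and the call held without any 1 of the 8 libraries. Between 1689 and 3236 reads per library stood behind these values.

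Nr3c2 (ENSMUSG00000031618, chromosome 8, 77626070 to 77971641, plus strand) had 16.8, 22.4, 53.7 and 56.9 normalized counts with vehicle and 7.75, 14.5, 13.8 and 22.0 with aldosterone. The lowest vehicle library lay within the range of the aldosterone libraries, and both vehicle libraries of sample number 2 were far above those of sample number 1. The log2 fold change was -1.21 (SE 0.419, 95% interval -2.10 to -0.32), with an adjusted p of 0.0853 in limma that missed the threshold. When libraries were blocked by sample number (a replicate block), the adjusted p was 0.00794 in limma, and over the 8 alternatives that kept all libraries it ran from 0.00794 to 0.0944. On the per-length level the difference was -0.87 within sample number 1 and -1.66 within sample number 2, with 2 libraries per treatment and no test. A term for a different response in the 2 sample numbers, added after the data were seen, had an adjusted p of 0.895 in limma. DESeq2 and edgeR without a filter on low counts gave adjusted p-values of 0.0246 and 0.0323. Whether Nr3c2 passed therefore depended on the block and on the test, while its fold change was below 0 in each.

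Esr1 (ENSMUSG00000019768, chromosome 10, 4561593 to 4955614, plus strand) had a mean of 73.6 ± 11.1 normalized counts with vehicle and 67.3 ± 12.1 with aldosterone (SD, n = 4 each), and its log2 fold change of -0.13 had a 95% interval of -0.53 to 0.26. Pgr (ENSMUSG00000031870, chromosome 9, 8899834 to 8968612, plus strand) had 8.79 ± 4.20 and 10.7 ± 5.20, with a log2 fold change of 0.25 and an interval of -0.75 to 1.26. The treatments overlapped for both genes, and their adjusted p-values were 0.741 and 0.820 in limma.

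**Figure D3:**
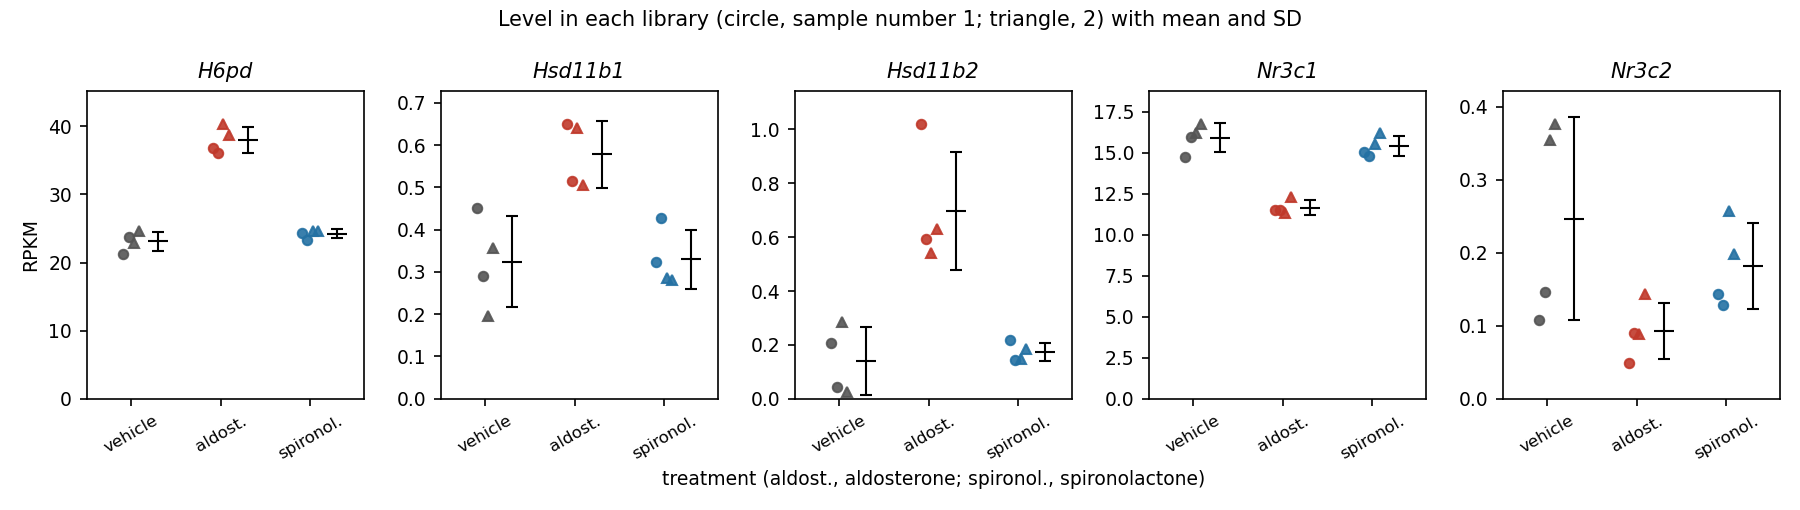
Level of 5 genes in each library as RPKM, by treatment, with a bar for the mean and SD of 4 libraries and an axis from 0 in each panel. The aldosterone libraries lie above all others for H6pd, Hsd11b1 and Hsd11b2 and below all others for Nr3c1, and the Nr3c2 panel shows the vehicle libraries split by sample number.

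H6pd (ENSMUSG00000028980, chromosome 4, 150063932 to 150093480, minus strand), hexose-6-phosphate dehydrogenase, had 2682, 2938, 2796 and 3000 normalized counts with vehicle and 4763, 4658, 5075 and 4812 with aldosterone. The groups were widely separated. H6pd was 0.76 higher on the log2 scale (SE 0.055, adjusted p = 6.99e-08 in limma), a fold of 1.69, and the call held without any 1 library. Its promoter window is the one shown above that holds the receptor hexamer, a feature shared with 19.0% of all windows.

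Hsd11b2 (ENSMUSG00000031891, chromosome 8, 106245387 to 106250620, plus strand), which inactivates glucocorticoids, had 11, 2, 10 and 1 reads in the vehicle libraries and 36, 28, 26 and 35 in the aldosterone libraries. In normalized counts these were 9.23, 1.95, 12.2 and 1.07 with vehicle and 46.5, 27.0, 23.9 and 27.5 with aldosterone. All aldosterone libraries lay above all vehicle libraries, and library 1_1 was highest with aldosterone. Hsd11b2 was 2.54 higher on the log2 scale (SE 0.543, adjusted p = 0.00518 in limma), with a wide 95% interval of 1.39 to 3.69. The call was lost without any of the 4 aldosterone libraries or without vehicle 1_2 or 2_2, where the adjusted p was between 0.0695 and 0.0917, while the log2 fold change stayed between 2.08 and 2.97. It held without vehicle 1_1 or 2_1.

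Hsd11b1 (ENSMUSG00000016194, chromosome 1, 192903942 to 192946383, minus strand), which regenerates active glucocorticoid, had 46.1, 29.3, 19.5 and 35.4 normalized counts with vehicle and 68.5, 54.0, 65.4 and 51.0 with aldosterone. The groups did not overlap, with the highest vehicle library close to the lowest aldosterone library. Hsd11b1 was 0.91 higher on the log2 scale (SE 0.258, adjusted p = 0.0326 in limma). The call was lost on leaving out any 1 library other than vehicle 1_1, with log2 fold changes from 0.69 to 1.09 and adjusted p-values up to 0.161. Per unit of length, the ratio of Hsd11b1 to Hsd11b2 was 0.693 to 14.3 with vehicle, 0.637 to 1.18 with aldosterone and 1.49 to 2.98 with spironolactone, a comparison made after the values were seen and given without a test. The highest vehicle ratios, 6.49 in 1_2 and 14.3 in 2_2, rested on 2 and 1 reads of Hsd11b2. With aldosterone, Hsd11b1 and Hsd11b2 were at similarly low levels, whereas H6pd was at 38.0 ± 1.97 RPKM.

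Markers of other cell types moved beside these results. Of the 5 endothelial markers, Kdr was higher with aldosterone (log2 fold change 1.88, adjusted p = 0.00183 in limma) and 4 did not pass. Tek, which makes up most of the endothelial sum, had a log2 fold change of 0.23, Cdh5 of 0.73, Pecam1 of -0.95 without overlap between the groups, and Cldn5, at 0 or 1 reads per library, of -0.054. Beside these, 1 of 4 Schwann cell markers, S100b, was higher by 0.50. Among 9 fibroblast markers Pdgfra was higher by 0.91, Ly6a was higher by 1.02 and Col3a1 fell by 0.43, while 0 of the 6 myogenic, 0 of the 6 macrophage and 0 of the 4 pericyte and smooth muscle markers in this table passed the test. The part of these shifts in the receptor and enzyme values was not tested.

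Spironolactone at the same dose and time gave a further contrast for aldosterone. Of the 7 genes, 3 were higher and 1 lower with aldosterone than with spironolactone, against 4.93% of 27631 genes higher and 3.96% lower. Among only the 15300 genes averaging 10 or more normalized counts the shares were larger, with 1400 higher and 1171 lower in limma. At the additional fold threshold Hsd11b2 remained, against 1.38% of all genes higher and 0.521% lower. This comparison shares its 4 aldosterone libraries with the one above and is not independent of it. The spironolactone libraries had 3093, 2985, 3102 and 3088 normalized counts of H6pd, 2795, 2789, 2861 and 2968 of Nr3c1, and 33.2, 44.7, 29.2 and 28.5 of Hsd11b1. Those of Hsd11b2 were 9.65, 6.49, 6.48 and 8.15. For each of these 4 genes the aldosterone and spironolactone libraries did not overlap. How many of all genes were separated in this way was not counted, here or against vehicle. H6pd was 0.69 higher with aldosterone (SE 0.051, adjusted p = 4.81e-08 in limma), Hsd11b2 was 1.90 higher (SE 0.347, adjusted p = 0.00129), Hsd11b1 was 0.85 higher (SE 0.222, adjusted p = 0.0207) and Nr3c1 fell by 0.35 (SE 0.053, adjusted p = 0.000164). The Hsd11b1 call was lost without any 1 library other than aldosterone 2_2 or spironolactone 1_2, with an adjusted p of up to 0.0862, and the calls of the other 3 genes held without any 1 library.

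Nr3c2 had 22.5, 20.3, 40.0 and 30.6 normalized counts with spironolactone against 7.99, 14.9, 14.2 and 22.6 with aldosterone, which overlapped through aldosterone 2_2. Its log2 fold change was -0.92 (95% interval -1.67 to -0.16), with an adjusted p of 0.151 in limma and 0.0642 to 0.173 over the 8 alternatives that kept all libraries. The per-length difference was -0.97 within each sample number. Esr1 was at 83.6 ± 6.04 with spironolactone and 69.2 ± 12.5 with aldosterone (log2 fold change -0.28, interval -0.64 to 0.078), and Pgr at 8.35 ± 4.02 with spironolactone and 11.02 ± 5.34 with aldosterone (log2 fold change 0.33, interval -0.65 to 1.31).

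Spironolactone against vehicle showed what the antagonist did by itself. Of the 7 genes, 0 passed the test, as did 0 (0%) of 27598 genes in limma, 0% also at the further fold threshold. Over all genes 1251 had an unadjusted p under 0.05 in limma, DESeq2 called 12 higher and 1 lower, and edgeR without a filter called 7 higher and 0 lower. Blocking by sample number (a replicate block) gave 63 higher and 34 lower in limma, with 0 of the 7 among them. The bounds on the change were narrow for the abundant genes, at -0.044 to 0.178 on the log2 scale for H6pd and -0.161 to 0.060 for Nr3c1. They were wide for Nr3c2 (-1.08 to 0.49), Pgr (-1.07 to 0.92), Hsd11b2 (-0.58 to 1.87) and Hsd11b1 (-0.55 to 0.67), and -0.19 to 0.50 for Esr1. Missing the threshold does not show that spironolactone and vehicle were alike for these genes.

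**Figure D4:**
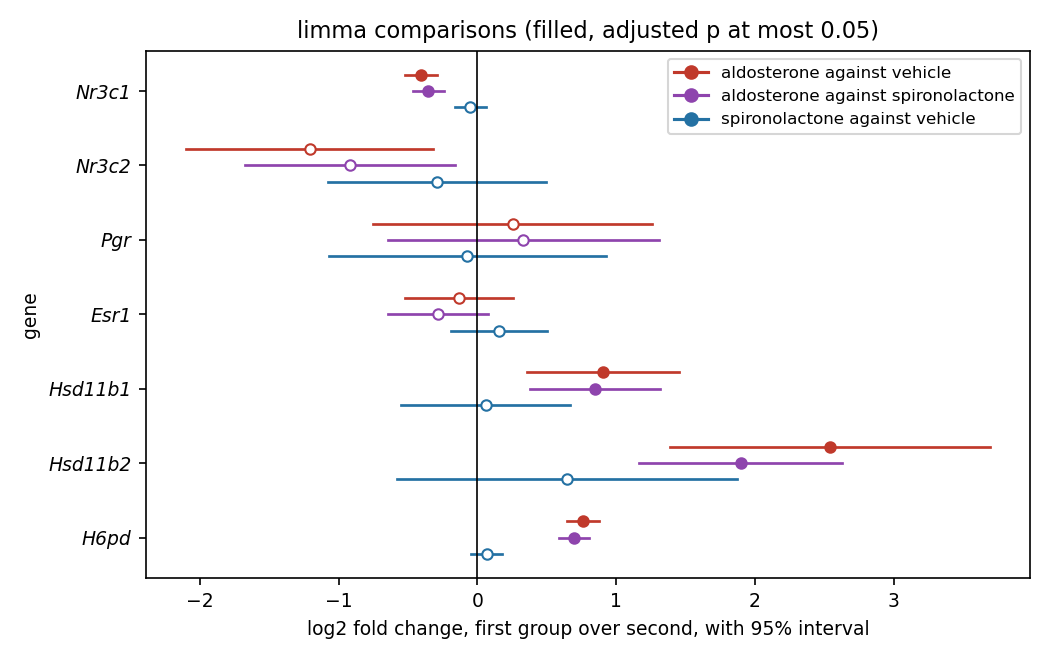
Log2 fold change of each gene in the 3 comparisons, first named treatment over the second, with 95% intervals from limma and filled points where the adjusted p was at most 0.05. The filled points are those of Nr3c1, Hsd11b1, Hsd11b2 and H6pd in both comparisons with aldosterone, and the intervals of spironolactone against vehicle all include 0.

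Other genes of steroid receptor action were taken from lists of 70 genes in all, of which 62 were in the table of aldosterone and vehicle and 15 were higher and 3 lower there. The shares over all genes in that table, 5.68% higher and 4.74% lower, stand beside each list below. The lists were not tested against them. These shares include many genes with few counts, whereas 56 of the 62 listed genes averaged 10 or more normalized counts. In a limma fit of only the 15245 genes reaching that mean, 1620 were higher and 1413 lower, which are larger shares. All 18 chaperones and all 18 coactivators and corepressors below reached that mean. For them these larger shares are the nearer comparison. Of 8 receptor target genes, 7 were higher and 0 lower, with a median log2 fold change of 1.90. Zbtb16, a zinc finger repressor, went from 7.15 ± 3.84 to 760.1 ± 107 normalized counts (log2 fold change 6.67, adjusted p = 1.06e-10 in limma), and Sgk1, a kinase that mediates aldosterone action on sodium channels, from 1478 ± 195 to 5810 ± 466 (1.98). Greb1, known as an estrogen receptor target, was the 1 gene that missed the test, at 13.2 ± 6.64 with vehicle and 26.0 ± 10.2 with aldosterone, and was named after its values were seen. Apart from Greb1, the list holds genes known to respond to both the MR and the glucocorticoid receptor, and some were already known to change in these libraries.

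Of 18 chaperones and co-chaperones, 4 were higher and 1 lower with aldosterone, with a median of 0.075. Beside Fkbp5, Hspa8, a constitutive heat shock protein, was higher by 0.44, Ppp5c, a phosphatase of the receptor complex, by 0.30 and Hspa1b by 0.31, although Hspa1b has a near-identical copy in Hspa1a and its reads are uncertain. Fkbp4, the co-chaperone that favours receptor transport to the nucleus, fell by 0.24 and was named after its values were seen. Of 18 coactivators and corepressors, 2 were higher and 1 lower, namely Pnrc1 by 0.29 and Pias1 by 0.25, and Med14, a Mediator subunit, which fell by 0.26.

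Among 14 genes of steroid metabolism and transport, 11 were in the table and 3 were higher and 1 lower. Hsd17b11 was higher by 0.46, Abcb1b, a drug and steroid exporter, by 0.34 and Hsd17b4 by 0.25, and Por, the electron donor of microsomal cytochromes P450, fell by 0.19 with an adjusted p of 0.0496 in limma. Of 8 steroid synthesis genes 3 were in the table, 1 of them averaging 10 or more normalized counts, and 0 passed the test. Of 5 other receptors of the family, 0 passed, and Esr2, estrogen receptor beta, missed the threshold at 32.5 ± 8.18 with vehicle and 16.1 ± 3.72 with aldosterone (adjusted p = 0.0559 in limma), without overlap between the groups. Against spironolactone the lists again gave 15 higher and 3 lower genes of 62, and against vehicle spironolactone gave 0 of 62. The lower receptor in the former was Esrrb, at 0.686 ± 0.464 normalized counts with aldosterone and 6.56 ± 1.89 with spironolactone, both under 10.

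**Figure D5:**
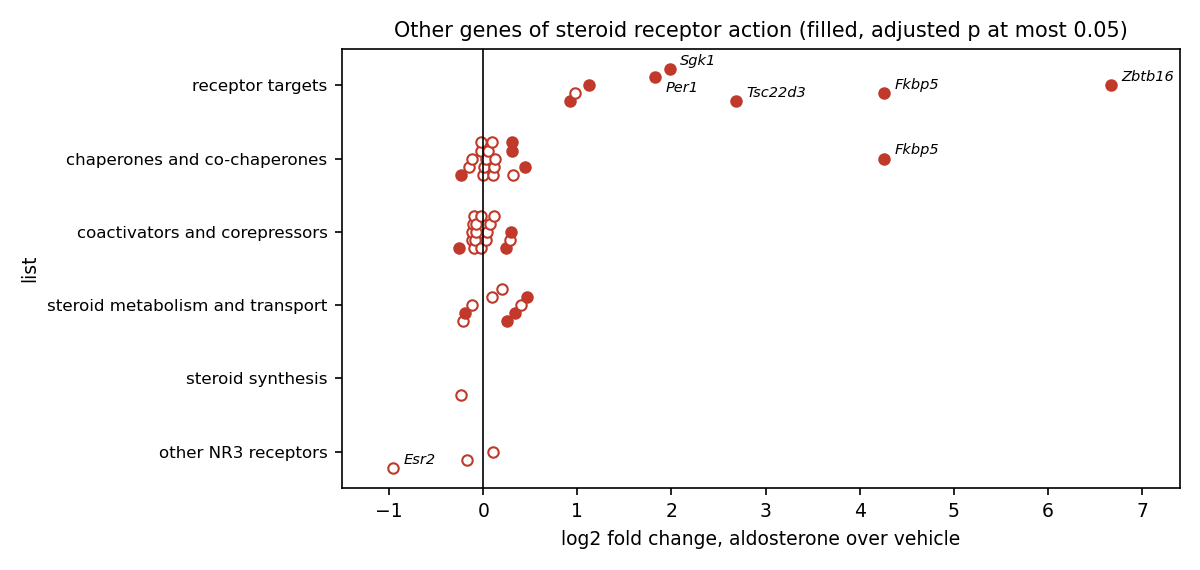
Log2 fold change of aldosterone over vehicle for the listed genes that averaged 10 or more normalized counts, by list, with filled points where the adjusted p was at most 0.05 in limma. The receptor targets reach 6.67, for Zbtb16, while the other lists lie mostly near 0, apart from Fkbp5, which is in both upper lists.

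The genes whose profile was most like each of the 7 were sought among 13040 protein-coding genes averaging 10 or more reads, by Pearson's r of log2(CPM + 1) over 12 libraries. These r values are descriptions over libraries that share treatments and sample numbers. For Nr3c1 the leading genes were Ano5, Efnb2 and Il1rl1 (r of 0.986, 0.985 and 0.985), and for H6pd Plpp3, Ston1 and Prune2 (0.990 for each). For Hsd11b2 they were Adcy1, 6430548M08Rik and Isyna1 (0.963, 0.961 and 0.949), and for Hsd11b1 Klf2, Vgf and Acvr1b (0.932, 0.926 and 0.922). For Nr3c2 they were Arl5b, Rab30 and Sema5a (0.951, 0.947 and 0.946), and for Esr1 Soat2, Cdc7 and Cnnm4 (0.903, 0.862 and 0.856). Among the genes themselves, H6pd and Nr3c1 ran in opposite directions (r = -0.916), as did Hsd11b2 and Nr3c1 (-0.900), while Nr3c1 and Nr3c2 had r = 0.777. Pgr had a mean under 10 reads and was not placed.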

How the data were processed

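The authors deposited 3 tables, 1 per pair of treatments, with signal values that are gene counts scaled by a size factor per library (normalized counts), beside their own log2 fold changes, p-values and group means, which were not used. The labels' processing notes name HISAT2 2.0.5, featureCounts 1.5.0-p3 and mm39, while the methods name mm9. Of 20676 genes matched to NCBIM37 (mm9), 39 had the same start. The gene positions are therefore not those of mm9, and they are given as in the tables. The strand setting was not given in the sources used here, and overlapping antisense transcripts cannot be told apart. Whole reads were recovered from the step of 22 of 24 columns, where 100% of values were whole within 0.1. The other 2 libraries were read from their second table.

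Each table was fitted separately with limma 3.58.1 (R 4.3.3, trend) on log2(value + 1), a scale that understates changes of low genes, over all genes with Benjamini-Hochberg adjustment. The ratio was tested by exact permutation. Alternatives were a pseudocount of 0.5, a mean of at least 10, DESeq2 1.42.0, edgeR 4.0.16 with and without filterByExpr, TMM scaling, replicate blocks and leaving out each library. Values and an interaction by sample number were added after seeing the data. Sample numbers were taken to pair libraries, since deviations from group means correlated between same-numbered libraries in all 24 pairs (mean r 0.328, lowest 0.187), and those by biological replicate number did not (mean r -0.0051). The limma, edgeR and DESeq2 fits were checked on simulated counts of independent libraries, without pairing by sample number. Only genes with more reads than Nr3c2, Pgr, Hsd11b1 and Hsd11b2 were changed there, so the check does not cover genes as low as these. Precision is limited by depth, which was 19136923 to 30219185 reads per library.

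Named genes are the 7 genes, the called genes of each list with a mean of at least 10 (at most the 4 largest changes), the treatment checks Fkbp5, Tsc22d3 and Per1, and the 3 genes most like each of the 7. The genes and lists were chosen with earlier results of these data known. The result of 1 listed gene is not reported here.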

Additional observations from a re-analysis of the deposited data

Results flagged for a closer look

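Among 66 groups of 4 values examined for the 7 genes and the receptor ratio, on the per-length scale and as normalized counts in each table, a value stood apart from the other 3 in 5. Chance gives about 1 in 20 such groups, and the groups are not independent, since libraries recur between tables and scales. Hsd11b2 in aldosterone library 1_1 was at 46.5 normalized counts in the table with vehicle, where the others were at 23.9 to 27.5, and at 47.9 in the table with spironolactone, where they were at 24.6 to 28.2. Esr1 in spironolactone library 1_2 was at 92.5 normalized counts in the table with aldosterone, above 79.4 to 81.5. H6pd in spironolactone library 1_2 was at 2985 normalized counts in the table with aldosterone, below 3088 to 3102, and at 2926 in the table with vehicle, below 3027 to 3041. None of these stood apart on the per-length scale.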

How the results depend on the processing

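With libraries blocked by sample number (a replicate block), 5 of the 7 genes passed in aldosterone against vehicle in place of 4, the added gene being Nr3c2 (adjusted p = 0.00794), and no other call of the 7 changed. DESeq2 and edgeR without a filter also called Nr3c2, with log2 fold changes of -1.33 and -1.28 and adjusted p-values of 0.0246 and 0.0323. Leaving out 1 library gave between 2 and 4 of the 7 in aldosterone against vehicle and between 3 and 4 in aldosterone against spironolactone, the calls lost being those of Hsd11b1 and Hsd11b2, in fits with fewer libraries. Sign changes arose among values that had not passed. On leaving out a library these were seen for Pgr with aldosterone against vehicle (-0.041 to 0.55), and with spironolactone against vehicle for Pgr (-0.37 to 0.17) and Hsd11b1 (-0.16 to 0.24), and within 1 sample number for Nr3c2 (0.093), Pgr (0.12) and Esr1 (-0.058) with spironolactone against vehicle. The exact p of the receptor ratio within sample numbers as a block was 0.111, 0.0556 and 0.278 for aldosterone against vehicle, aldosterone against spironolactone and spironolactone against vehicle, where 0.0556 is the smallest possible. Over all genes, the block raised the calls for aldosterone against vehicle from 1553 higher and 1294 lower to 2371 and 2192. Pgr, Hsd11b2 and Nr3c2 had 4 to 19, 1 to 36 and 6 to 53 reads per library.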
